A study of Mus musculus with 8 samples.

Results

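Epithelial-mesenchymal transition (EMT) is the switch in which epithelial cells give up their junctions and take on a motile, mesenchymal form. The genes described here are 9 of its textbook components: the transcription factors Snai1, Snai2, Twist1, Twist2, Zeb1 and Zeb2, the cadherins Cdh1 and Cdh2, and the intermediate filament gene Vim. They were found as every probe set that the platform annotation assigns to 1 of these symbols alone, which gave 20 of the 34958 probe sets with a single symbol. Snai2, Cdh2, Vim, Zeb1 and Zeb2 are read by 2, 2, 3, 4 and 5 probe sets and the other genes by 1 each.

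Total RNA was measured on 8 Affymetrix mouse arrays, in 4 groups of 2, from 7438 cells, a mouse mammary line that expresses a green fluorescent glucocorticoid receptor (GFP-GR) and a cherry fluorescent estrogen receptor (Cherry-ER) from tetracycline-regulated promoters. All groups, the untreated one included, carried both receptors, spent 48 hours in medium with 10% charcoal-dextran serum and had tetracycline withdrawn for the last 24 hours. The groups were Dex+E2 (100 nM dexamethasone and 100 nM estradiol), Dex (100 nM dexamethasone, a synthetic glucocorticoid), E2 (100 nM estradiol) and untreated, with the hormones given for 2 hours. Both receptors are engineered into 1 line, and the titles number the arrays without saying whether they are separate cultures, so the p-values below refer only to the spread between these arrays, which may be technical. For 1 array of E2 (replicate 2) and 1 of Dex+E2 (replicate 1), the free-text description speaks of chromatin immunoprecipitation, although title and treatment label put them in the expression groups. The main changes when both are left out are given beside the results they touch.

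Snai1 and Snai2 encode zinc finger repressors, Zeb1 and Zeb2 larger zinc finger and homeodomain repressors, and Twist1 and Twist2 basic helix-loop-helix factors. The Snail and Zeb proteins bind E-box sequences, among them those of the promoter of Cdh1, the gene of E-cadherin, which holds epithelial cells together. Loss of E-cadherin with gain of N-cadherin, the product of Cdh2, and of vimentin is the classical cadherin switch. In the mammary gland Snai2 is best known from basal and progenitor cells.

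The promoters of Snai1 and Twist1 are shown because both genes lay lower on all 4 arrays with Dex than on all 4 without it. They are the 250 bases before the annotated start in RefSeq (GRCm38.p6), both on the plus strand, at chr2:167537945-167538194 and chr12:33957421-33957670, and capitals mark the E-box CACCTG (or CAGGTG on the other strand).
Snai1 promoter: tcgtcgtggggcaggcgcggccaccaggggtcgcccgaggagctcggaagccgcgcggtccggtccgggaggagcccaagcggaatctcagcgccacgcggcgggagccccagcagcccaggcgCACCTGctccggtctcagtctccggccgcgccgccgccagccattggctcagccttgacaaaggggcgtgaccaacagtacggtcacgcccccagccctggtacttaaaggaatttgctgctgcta
Twist1 promoter: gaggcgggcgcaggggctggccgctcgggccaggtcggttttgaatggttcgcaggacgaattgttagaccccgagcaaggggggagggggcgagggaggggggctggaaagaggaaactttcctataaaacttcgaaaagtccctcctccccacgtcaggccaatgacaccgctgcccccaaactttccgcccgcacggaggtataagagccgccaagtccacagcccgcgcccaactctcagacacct
The Snai1 window held 1 such E-box, from 126 to 121 bases before the start, and the Twist1 window held none. Windows of Snai2, Zeb1, Cdh1 and Cdh2 were not analysed here. Among the 8 windows used here, of Snai1, Twist1, Twist2, Zeb2 and Vim, that was the 1 window with the motif, which occurs in 17.2% of 32851 mouse promoter windows of this length. The half-site of a glucocorticoid response element, AGAACA or TGTTCT, was in 0 of these 8 windows and in 16.1% of all windows. The 8 windows come from 5 genes and are not independent, since 4 belong to Zeb2 and 2 of those largely overlap. A match, or none, in so short a window describes the letters only.

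The arrays' medians ran from 5.58 to 5.67 on the log2 scale. Replicate arrays correlated at 0.9961 to 0.9983, with Dex+E2 the least alike: 1252 of 45101 probe sets differed by over 0.5 log2 units between its 2 arrays, against 92 to 306 in the other groups. Over the 20 probe sets the median absolute difference between replicates was 0.128 log2 units in Dex+E2, 0.0533 in Dex, 0.0433 in E2 and 0.0505 in untreated cells. The hormone checks responded to Dex: with Dex against untreated, Tsc22d3, the glucocorticoid-induced leucine zipper, rose by 2.82 ± 0.235 (SE), the clock gene Per1 by 2.66 ± 0.129 and the chaperone gene Fkbp5 by 1.62 ± 0.113 log2 units (limma, Benjamini-Hochberg adjusted p = 0.000202, 9.13e-06 and 6.79e-05). Tsc22d3 was called higher on 2 of its 4 probe sets (lowest -0.03) and Fkbp5 on 2 of 3 (lowest -0.01). With E2 against untreated, Per1 rose by 1.97 log2 units (limma, adjusted p = 0.000484), and the other 2 genes did not pass.

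Cdh1 was dim on all 8 arrays, while Vim and Cdh2 lay among the brighter probe sets. The Cdh1 probe set lay at 3.24 and 3.26 log2 units in Dex+E2, 3.25 and 3.25 in Dex, 3.28 and 3.24 in E2, and 3.27 and 3.22 in untreated cells. That is percentile 4.11 of the mean levels of all probe sets in the table, so it is called dim here, as is every probe set whose mean lies below the table's median of 5.63. A dim probe set says little about change, and the level of a probe set depends on its probes as well as on the RNA. The 3 Vim probe sets lay at percentiles 99.7 to 99.8 and the 2 Cdh2 probe sets at 94.7 and 89. Of the 5 luminal epithelial markers checked against the label of mammary cells, Krt18, Krt19 and Elf5 were dim while Krt8 and Epcam lay at percentiles 53.3 and 66.1. Of the basal markers, Krt14 lay at 77.1 and Krt5 at 62.6, while Trp63 and Oxtr were dim. Of 7 fibroblast markers, Thy1 and Dcn were dim and Col1a2 lay at percentile 99.8. Averaged per array, the fibroblast list ran from 8.16 to 8.20 in Dex+E2, 8.18 to 8.22 in Dex, 8.19 to 8.26 in E2 and 8.25 to 8.32 in untreated cells. The basal list ran from 6.25 to 6.25 in Dex+E2, 6.25 to 6.31 in Dex, 6.23 to 6.25 in E2 and 6.32 to 6.35 in untreated cells. Both lists thus lay slightly lower on the arrays with Dex than on the untreated arrays, without overlap. The basal list lay below untreated without overlap in E2 too, while the fibroblast list in E2 overlapped untreated. The luminal list ran from 5.39 to 5.42 in Dex+E2, 5.38 to 5.38 in Dex, 5.25 to 5.33 in E2 and 5.41 to 5.44 in untreated cells. It lay below untreated without overlap in E2 and in Dex, but not in Dex+E2. The endothelial list ran from 4.66 to 4.98, the immune list from 5.59 to 5.71 and the adipocyte list from 4.01 to 4.20 over the 4 groups, and 3 of 4, 2 of 4 and 2 of 2 of their measured genes were dim. The others of these lists, Kdr, Cd14 and Cd3e, lay at percentiles 61.4, 72.4 and 60.8. A level above the median therefore does not by itself show expression or mark a cell type. The part of cell composition in the results below was not tested, and in these bulk samples fewer cells of a type and less RNA per cell cannot be told apart.

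**Figure D1:**
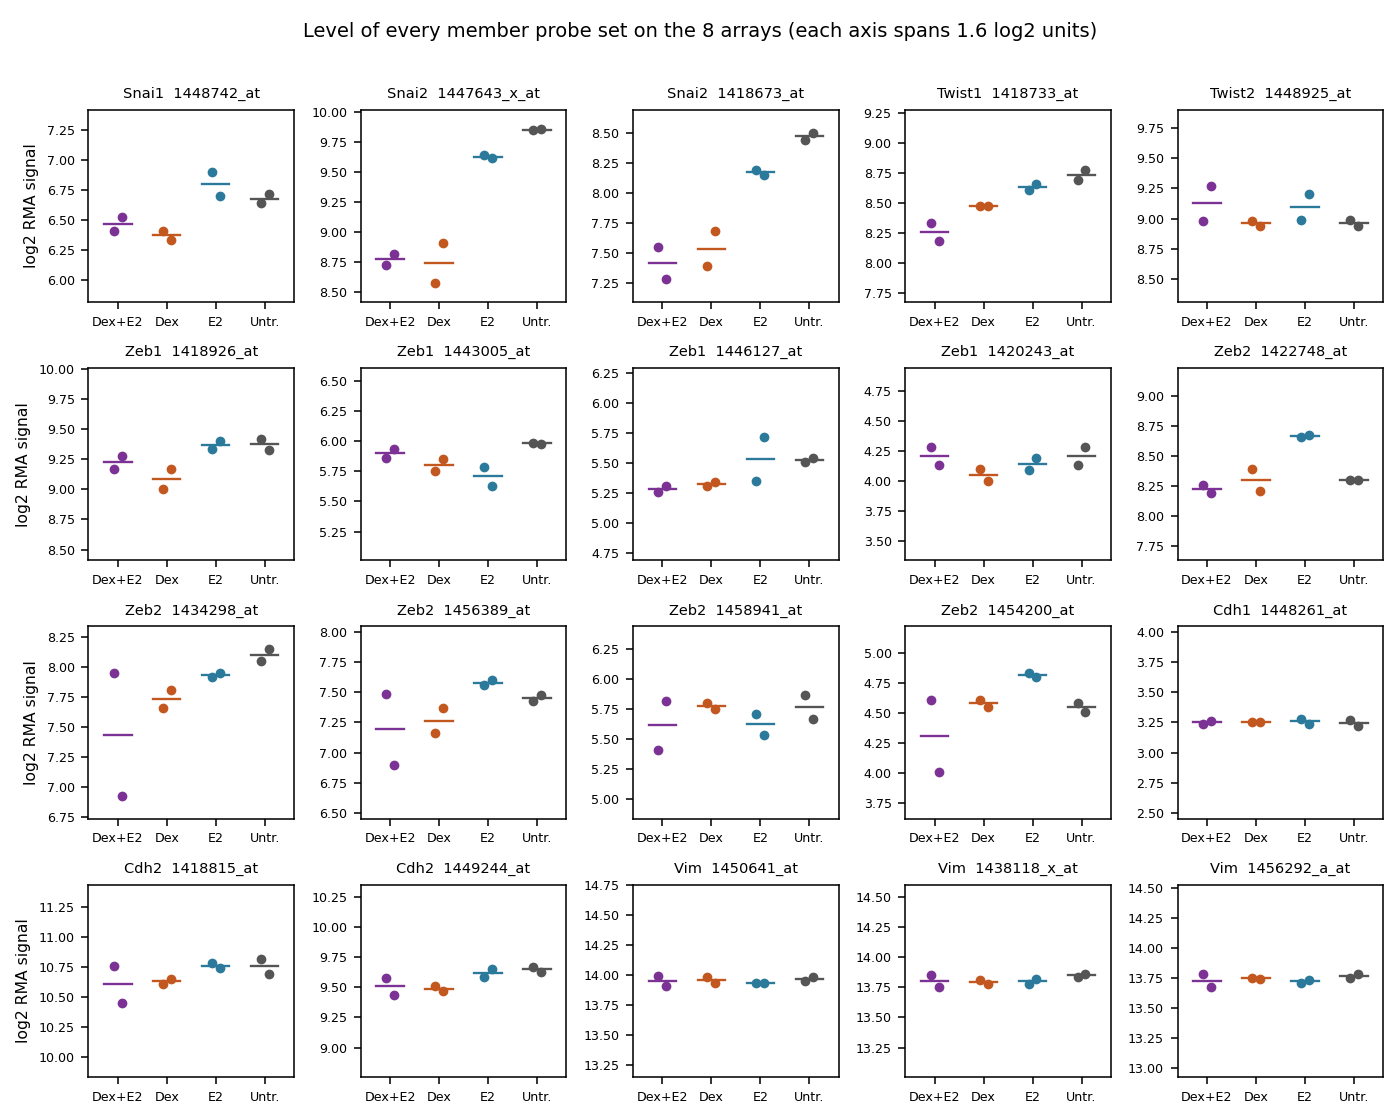
Log2 RMA signal (y axis, 1.6 log2 units tall in each panel) of each of the 20 probe sets on the 8 arrays, by treatment (x axis). Points are arrays and horizontal lines are group means of 2 arrays. Both Snai2 panels show the 4 arrays with Dex below the 4 without, and the Cdh1 and Vim panels are flat.

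Snai2 had the largest differences that passed the test among these genes. Both of its probe sets fell with Dex at 2 hours, with or without estradiol, and neither passed the test for E2 alone. On probe set 1447643_x_at the signal was 8.73 and 8.82 log2 units in Dex+E2, 8.58 and 8.91 in Dex, 9.64 and 9.62 in E2, and 9.85 and 9.86 in untreated cells. The 4 arrays with Dex all lay below the 4 without, and even Dex replicate 2, the highest with the hormone, was under both E2 arrays. On probe set 1418673_at the signal was 7.55 and 7.28 in Dex+E2, 7.39 and 7.68 in Dex, 8.19 and 8.15 in E2, and 8.44 and 8.50 in untreated cells. The separation was the same on this second probe set. The suffix _x_at marks probes that can also match other transcripts, and 1418673_at has no such suffix.

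With Dex against untreated, Snai2 fell by 1.10 ± 0.109 log2 units on 1447643_x_at, a ratio of 0.465 (limma, Benjamini-Hochberg adjusted p = 0.000529), and by 0.93 ± 0.119 on 1418673_at (adjusted p = 0.00269). These were 2 of the 20 probe sets of the 9 genes called lower, at an adjusted p under 0.05, and 0 were called higher, beside 0.426% lower and 0.709% higher of the 34958 probe sets tested. Without untreated replicate 2 the second probe set missed the threshold (limma, adjusted p = 0.0547). With Dex+E2 against E2, which shares no array with the previous comparison, Snai2 fell by 0.86 ± 0.109 (adjusted p = 0.01) and by 0.76 ± 0.119 (adjusted p = 0.0265), again 2 of 20 lower and 0 higher, beside 0.192% and 0.26% of all. These 2 calls were less firm: 1447643_x_at missed the threshold without either E2 array (limma, adjusted p = 0.0917 and 0.0626), and 1418673_at without either E2 array, either untreated array or Dex+E2 replicate 2 (adjusted p = 0.0753 to 0.155). With Dex+E2 against untreated the falls were 1.08 ± 0.109 and 1.06 ± 0.119 (limma, adjusted p = 0.000732 and 0.00132). Both calls held without each single array and without both arrays of doubtful description.

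Estradiol alone gave Snai2 a smaller difference that did not pass. E2 lay below untreated by -0.22 (95% interval -0.465 to 0.0218) on 1447643_x_at and by -0.30 (-0.568 to -0.0386) on 1418673_at (limma, Benjamini-Hochberg adjusted p = 0.88 and 0.81). The 2 hormones differed when set against each other: with Dex against E2, Snai2 fell by 0.88 ± 0.109 on 1447643_x_at (limma, adjusted p = 0.00445) and by 0.63 ± 0.119 on 1418673_at (adjusted p = 0.041), 2 of 20 probe sets lower and 0 higher, beside 0.38% and 0.481% of all. The call on 1418673_at was lost without any of the 6 single arrays of Dex, E2 and untreated (adjusted p = 0.0784 to 0.507) and without both arrays of doubtful description, and that on 1447643_x_at without Dex replicate 1 (limma, adjusted p = 0.0535). Adding E2 to Dex moved Snai2 by 0.03 (95% interval -0.218 to 0.269) and -0.13 (-0.39 to 0.139), neither past the threshold. The interaction, which is the Dex effect in E2-treated cells minus that in cells without E2, was 0.25 (-0.0968 to 0.592) and 0.18 (-0.197 to 0.552), so a Dex effect up to 0.592 log2 units smaller in the presence of E2 lies within the interval.

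Snai1, the other Snail gene, also lay lower on the arrays with Dex, by less than Snai2, and did not pass in any comparison. Its probe set read 6.41 and 6.53 log2 units in Dex+E2, 6.41 and 6.34 in Dex, 6.90 and 6.70 in E2, and 6.64 and 6.72 in untreated cells. The 4 arrays with Dex lay below the 4 without, the nearest pair being Dex+E2 replicate 2 and untreated replicate 1. The difference was -0.31 ± 0.0977 for Dex against untreated, -0.33 ± 0.0977 for Dex+E2 against E2 and -0.43 ± 0.0977 for Dex against E2 (limma, Benjamini-Hochberg adjusted p = 0.398, 0.245 and 0.111). The mean Dex effect, which takes 4 arrays with Dex against 4 without and so pools Dex against untreated with Dex+E2 against E2, was -0.32 ± 0.0691 and missed the threshold narrowly (limma, adjusted p = 0.0532). It passed in 7 of the alternative settings, among them 1 probe set per gene, dim probe sets removed, arrays centred on their medians, without E2 replicate 2 and without both arrays of doubtful description (limma, adjusted p = 0.0266 to 0.0498).

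**Figure D2:**
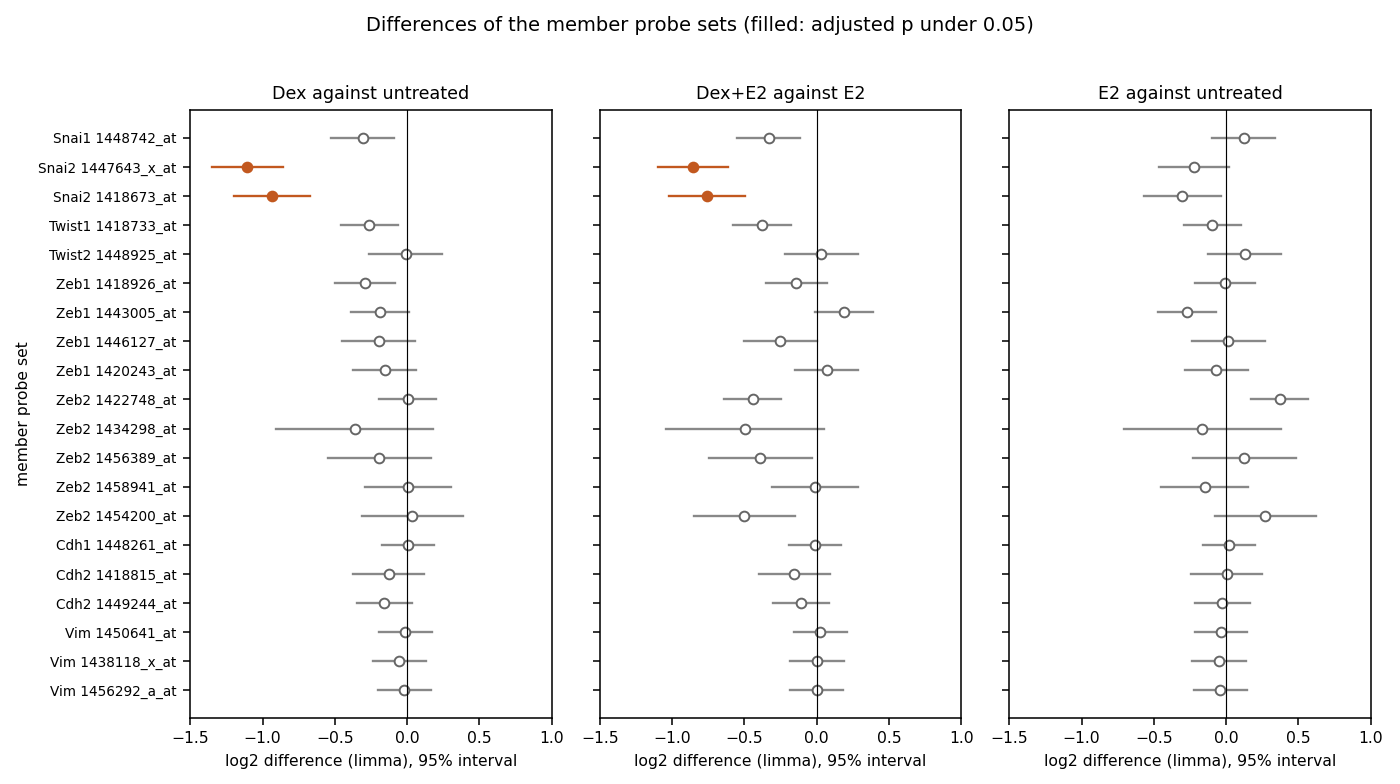
Log2 differences with 95% intervals (x axis) for the 20 probe sets (y axis), for Dex against untreated, Dex+E2 against E2, and E2 against untreated. Filled points have a limma Benjamini-Hochberg adjusted p under 0.05 over 34958 probe sets; the 2 Snai2 probe sets are the filled points in the first and second panels, and the E2 panel has none.

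Of the close relatives Twist1 and Twist2, Twist1 had calls and Twist2 had none. Twist1 read 8.33 and 8.18 log2 units in Dex+E2, 8.47 and 8.47 in Dex, 8.61 and 8.66 in E2, and 8.69 and 8.77 in untreated cells. Its groups did not overlap and both Dex+E2 arrays were the lowest. Twist1 fell by 0.47 ± 0.0892 with Dex+E2 against untreated (limma, Benjamini-Hochberg adjusted p = 0.0349), the third of 3 probe sets of the 20 called lower there, beside 0.469% of all, with 0 called higher beside 0.595%. For Dex against untreated it was -0.26 ± 0.0892 (adjusted p = 0.494) and for E2 against untreated -0.10 ± 0.0892 (adjusted p = 0.938). Its mean Dex effect was -0.32 ± 0.063 and passed (limma, adjusted p = 0.0326). Both calls were fragile: each was lost in 7 of the 8 fits that leave out 1 array, all but that without Dex+E2 replicate 1, with adjusted p up to 0.343 and 0.166, although the difference stayed between -0.55 and -0.40 and between -0.36 and -0.28 in all settings. With the replicate number as a block they had limma adjusted p = 0.0682 and 0.0612. Twist2 read 8.98 and 9.27 in Dex+E2, 8.98 and 8.94 in Dex, 8.99 and 9.20 in E2, and 8.99 and 8.94 in untreated cells. The E2 arrays lay above the Dex arrays and, narrowly, the untreated ones, while Dex and untreated overlapped, and the difference for Dex against untreated was -0.01 (95% interval -0.261 to 0.243).

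The 4 probe sets of Zeb1 did not pass in any comparison. The brightest, 1418926_at, read 9.17 and 9.28 log2 units in Dex+E2, 9 and 9.17 in Dex, 9.34 and 9.40 in E2, and 9.42 and 9.33 in untreated cells. The arrays with Dex again lay below those without, by -0.29 ± 0.0942 for Dex against untreated and -0.14 ± 0.0942 for Dex+E2 against E2 (limma, Benjamini-Hochberg adjusted p = 0.417 and 0.556). Of the other 3, 1443005_at differed by -0.19, 1446127_at by -0.20 and 1420243_at by -0.15 for Dex against untreated, and by 0.19, -0.25 and 0.07 for Dex+E2 against E2. The last 2 of these are dim.

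The 5 probe sets of Zeb2 did not order the groups alike, and none passed in any comparison of the main fit. Some passed in alternative settings, not all of which are listed below. Probe set 1422748_at read 8.26 and 8.19 log2 units in Dex+E2, 8.39 and 8.21 in Dex, 8.66 and 8.67 in E2, and 8.30 and 8.30 in untreated cells. Both E2 arrays stood above the other 6, by 0.37 ± 0.0894 over untreated (limma, Benjamini-Hochberg adjusted p = 0.426), and Dex+E2 lay below E2 by -0.44 ± 0.0894 (adjusted p = 0.08, but 0.0406 to 0.0491 with dim probe sets removed, with a crossed replicate block or without Dex+E2 replicate 1). Probe sets 1456389_at and the dim 1454200_at also had both E2 arrays above the other 6, at 7.56 or more against at most 7.49 and at 4.80 or more against at most 4.61, while 1434298_at and 1458941_at did not. Those 3 of the 20 probe sets compare with 5.74% of all, a count made after their values were seen, and none of them passed for E2 against untreated.

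A single array set the lower end of Zeb2 on 1434298_at, 1456389_at and 1454200_at. Probe set 1434298_at read 7.95 and 6.93 in Dex+E2, 7.66 and 7.81 in Dex, 7.92 and 7.95 in E2, and 8.05 and 8.15 in untreated cells. Dex+E2 replicate 2 was 1.03 log2 units below its replicate there. It was also the lowest array on 1456389_at and 1454200_at, at -0.59 and -0.61 from its replicate. On 1422748_at it was lowest too, but at only -0.07 from its replicate, and on 1458941_at the lowest array was Dex+E2 replicate 1. Dex+E2 against untreated was -0.66 ± 0.244 on 1434298_at (limma, Benjamini-Hochberg adjusted p = 0.451). With replicate 2 as the sole Dex+E2 array it became -1.17 (adjusted p = 0.000801), and 1456389_at and the dim 1454200_at passed too, at -0.56 and -0.53 (limma, adjusted p = 0.0293 and 0.0215). Without both arrays of doubtful description, which again leaves replicate 2 alone, these 3 probe sets passed for Dex+E2 against untreated at the same differences (limma, adjusted p = 0.000864, 0.0328 and 0.025). Their mean Dex effects were then -0.68, -0.43 and -0.39 (limma, adjusted p = 0.00198, 0.0282 and 0.0233), and 1434298_at and 1454200_at also passed against E2 (limma, adjusted p = 0.0123 and 0.0172). All of these values rest on Dex+E2 replicate 2 for that group.

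Cdh2 and Vim, the mesenchymal side of the switch, had no call. Cdh2 probe set 1418815_at read 10.76 and 10.45 log2 units in Dex+E2, 10.61 and 10.65 in Dex, 10.78 and 10.74 in E2, and 10.82 and 10.69 in untreated cells, with the groups overlapping except that both Dex arrays lay under E2 and untreated. On 1449244_at the 4 arrays with Dex, 9.44 to 9.58, lay just below the 4 without, 9.59 to 9.67, with a mean Dex effect of -0.13 ± 0.0614 (limma, Benjamini-Hochberg adjusted p = 0.473). The 3 Vim probe sets spanned 0.08, 0.11 and 0.11 log2 units over all 8 arrays. They lay at percentiles 99.7 to 99.8, and how well probe sets this bright show a change was not tested. For Dex against untreated, the 95% intervals were -0.193 to 0.17, -0.239 to 0.128 and -0.203 to 0.166 for Vim, -0.371 to 0.117 and -0.35 to 0.0356 for Cdh2, and -0.172 to 0.185 for the dim Cdh1. None of the 6 probe sets of Cdh1, Cdh2 and Vim passed in any of the 9 comparisons.

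The arrays of the groups did not overlap and were lower on 13 of 20 probe sets for Dex against untreated, 10 for Dex+E2 against untreated, 10 for Dex+E2 against E2 and 13 for Dex against E2, beside 17.8%, 17%, 19.5% and 18.7% of all probe sets tested. Such falls were not limited to Dex. E2 lay wholly below untreated on both probe sets of Snai2, Twist1, Zeb1 1443005_at, Zeb2 1434298_at and all of Vim. It lay wholly above untreated on Twist2 and on Zeb2 1422748_at, 1456389_at and 1454200_at. No share of all probe sets is given here for E2 against untreated, so these 2 lists describe the arrays and are not read as an effect of E2. Across all 20, 16 lay below 0 for Dex against untreated, with a median of -0.16, beside a median of 0.0006 over all probe sets tested, and 15 lay below 0 for Dex+E2 against E2, with a median of -0.15 beside 0.0065. In the mean Dex effect 3 of 20 were called lower and 0 higher, beside 0.85% and 0.838% of all, and on 7 of 20 the 4 arrays with Dex lay wholly below the 4 without (both of Snai2, Snai1, Twist1, 2 of Zeb1 and 1 of Cdh2), beside 3.33% of all. Several of these probe sets read the same gene and so are not independent. For E2 against untreated, limma called 0 of 20 at an adjusted p under 0.05, beside 0.0544% of all. At an unadjusted p under 0.05 there were 3 of 20, beside 5.84% of all. For Dex+E2 against Dex and for the interaction 0 were called too, beside 0.00858% and 0.00286% of all. Unadjusted, the counts were 1 and 3 of 20, beside 4.76% and 5.64% of all. The mean E2 effect had 0 called, beside 0.083%, and 3 unadjusted, beside 4.47%.

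The other genes of the pathway come from lists drawn up for this description, with each gene represented by its brightest probe set. The lists were chosen with earlier results of these data known, and the shares beside their counts are of probe sets, not genes. The counts therefore describe the lists and do not test them. Of the 15 genes of transforming growth factor beta (TGF-beta) signalling, which drives EMT in many epithelia, 3 were lower and 0 higher with Dex against untreated, beside 0.426% and 0.709% of all probe sets tested. The inhibitory Smad genes Smad6 and Smad7 fell by 1.10 ± 0.128 and 0.78 ± 0.0937 log2 units (limma, Benjamini-Hochberg adjusted p = 0.0016 and 0.00186), and Tgif1, a homeodomain corepressor of Smad complexes, fell by 1.12 ± 0.144 (adjusted p = 0.00292, and 0.0503 without untreated replicate 2). Tgif1 read 7.52 and 7.22 in Dex+E2, 7.61 and 7.62 in Dex, 8.43 and 8.15 in E2, and 8.56 and 8.91 in untreated cells. With Dex+E2 against untreated 4 of the 15 were lower, beside 0.469% of all. There Smad6 lost its call without untreated replicate 2 (limma, adjusted p = 0.105), and Smad7 in 4 of 18 settings, among them without either untreated array or Dex+E2 replicate 2 (adjusted p up to 0.141). The fourth was Inhba, which encodes an activin subunit, down by 0.51 ± 0.0905 (limma, adjusted p = 0.0258, lost in 8 of 18 settings, at 0.281 with its probe sets averaged and up to 0.295 without untreated replicate 2). The median of the list was -0.15 for Dex and -0.05 for Dex+E2 against untreated. The TGF-beta ligand and receptor genes Tgfb1, Tgfb2, Tgfb3, Tgfbr1 and Tgfbr2 and the receptor-activated Smad genes Smad2 and Smad3 did not pass in any of the 9 comparisons.

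Of the 16 measured genes for cofactors and turnover of the Snail proteins, 1 was called lower and 0 higher with Dex against untreated, beside 0.426% and 0.709% of all, so the count says little about the list. Ajuba, which encodes a LIM domain corepressor of Snail proteins, read 9.38 and 9.08 log2 units in Dex+E2, 9.36 and 9.10 in Dex, 10.20 and 9.91 in E2, and 10.61 and 10.52 in untreated cells. It fell by 1.33 ± 0.135 with Dex and by 1.34 ± 0.135 with Dex+E2 against untreated (limma, Benjamini-Hochberg adjusted p = 0.000595 and 0.000732), in every setting tried. The E2 arrays lay between the other groups, at -0.51 ± 0.135 from untreated without passing (adjusted p = 0.483). The list's median was -0.02 for Dex.

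**Figure D3:**
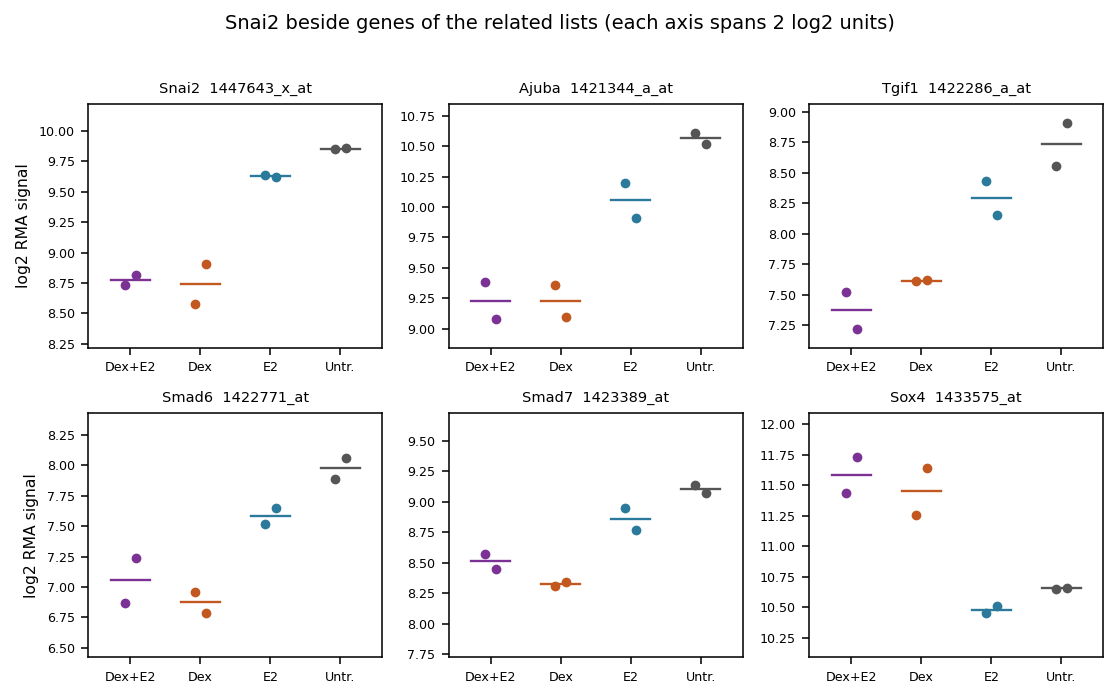
Log2 RMA signal (y axis, 2 log2 units tall in each panel) of Snai2 and of 5 genes of the related lists on the 8 arrays, by treatment (x axis). Points are arrays and horizontal lines group means of 2 arrays. Ajuba, Tgif1, Smad6 and Smad7 lie lower and Sox4 higher on the 4 arrays with Dex, as Snai2 lies lower.

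Of 13 measured other EMT transcription factors, 1 rose and 1 fell with Dex against untreated, beside 0.709% and 0.426% of all, and 2 rose and 1 fell with Dex+E2 against untreated, beside 0.595% and 0.469%. Sox4, a high-mobility-group factor, rose by 0.79 ± 0.133 log2 units with Dex against untreated and by 1.11 ± 0.133 with Dex+E2 against E2 (limma, Benjamini-Hochberg adjusted p = 0.0163 and 0.00709, the second 0.077 without E2 replicate 1). It read 11.44 and 11.73 in Dex+E2, 11.26 and 11.64 in Dex, 10.45 and 10.51 in E2, and 10.65 and 10.66 in untreated cells. Of its 8 probe sets 2 were called higher with Dex against untreated, the lowest lying at -0.07, and the Dex call was lost without either untreated array, without Dex replicate 2 and with the mean of its probe sets (adjusted p up to 0.17). Zfp703, a zinc finger gene, fell by 0.54 ± 0.0951 (limma, adjusted p = 0.0217), on 1 of its 3 probe sets, which ranged up to 0.17, and lost the call without any single array of the comparison and with their mean. Sox9, another Sox factor, rose by 0.78 ± 0.118 with Dex+E2 against untreated (limma, adjusted p = 0.00927, lost without either untreated array or Dex+E2 replicate 2). Of its 3 probe sets 2 were called higher there and 1 with Dex against untreated, where they ranged from 0.32 to 0.69. For E2 against untreated they ranged from 0.28 to 0.73, with 0 called. Its mean Dex effect was 0.44 ± 0.0838 (limma, adjusted p = 0.025, lost in 6 of 17 settings). In the mean Dex effect Ets1 was also called, -0.50 ± 0.0973 (limma, adjusted p = 0.03), on 1 of 4 probe sets, and lost the call without any single array other than the Dex+E2 ones (adjusted p up to 0.157).

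The junction, epithelial and mesenchymal lists gave 1 call in all, and with so few probe sets called over the whole table, 0.709% higher and 0.426% lower for Dex against untreated, counts of 0 in lists this short are near that background. Of 22 epithelial state genes, 12 of them dim, and of 14 other cadherin and adherens junction genes, 4 of them dim, none passed in any of the 9 comparisons, and the medians for Dex against untreated were 0.02 and -0.04. Of 21 measured mesenchymal state genes, 0 passed for Dex, E2 or Dex+E2 against untreated, with a median of -0.03 for Dex, and 1 passed in the mean Dex effect, the receptor gene Pdgfrb, at -0.35 ± 0.0689 (limma, Benjamini-Hochberg adjusted p = 0.032, lost in 7 of 8 fits without 1 array).

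**Figure D4:**
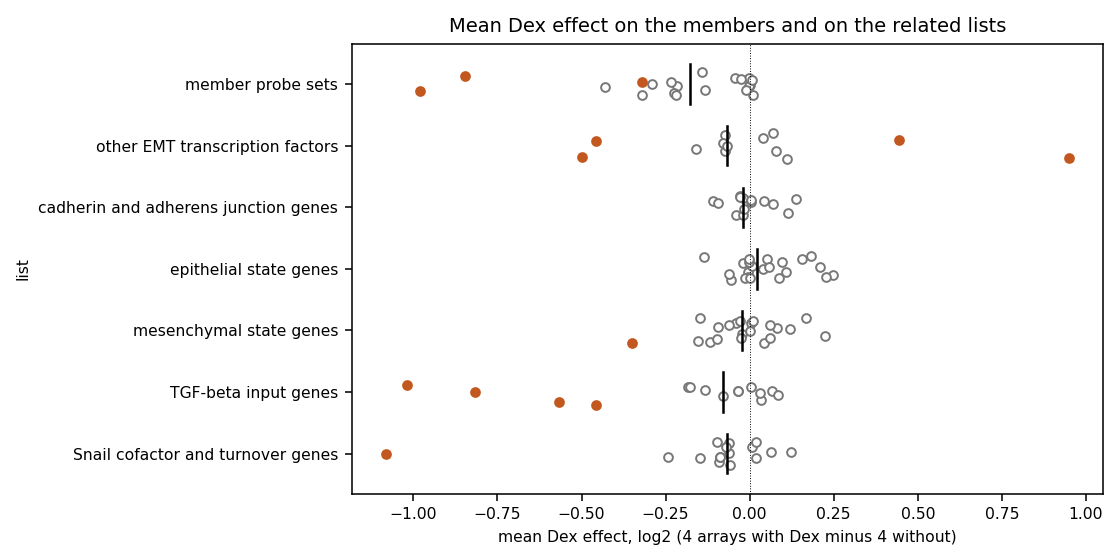
Mean Dex effect in log2 units (x axis, 4 arrays with Dex minus 4 without) for the 20 probe sets and for the genes of 6 related lists (y axis), each point a probe set, with filled points past an adjusted p of 0.05 and black bars at the medians. The junction and epithelial rows have no filled point.

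The probe sets whose pattern over the 8 arrays was most like Snai2 on 1447643_x_at belonged to Ahr (Pearson r = 0.987), the aryl hydrocarbon receptor gene, Plau (0.987, a dim probe set), the urokinase gene, Hbegf (0.984), an EGF family ligand, Tiam2 (0.979), a guanine nucleotide exchange factor, and Mllt11 (0.979). They were taken from 943 probe sets of named genes whose group means span at least 0.5 log2 units. The most opposed were Tob2 (-0.993), an antiproliferative gene, Tgm2 (-0.99), transglutaminase 2, and Bcl2l1 (-0.989), a survival gene. For Twist1 the most alike were Bdnf (0.984), a neurotrophin gene, Atp2c1 (0.972, dim), Sin3a (0.97), Marveld1 (0.967) and Tln1 (0.967), and the most opposed Usp2 (-0.982), Nlrp9a (-0.956, dim) and Trib1 (-0.934), from 945 candidates. For these genes other than Nlrp9a the 4 arrays with Dex do not overlap the 4 without, so r over 8 arrays mostly describes that split, and no r here carries a test.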

How the data were processed

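Total RNA of 7438 cells was measured on 8 Affymetrix mouse arrays. Per the submitters' processing notes, the authors deposited log2 values from the RMA method of Affymetrix Expression Console (version not given in the sources used here). RMA removes background, gives all arrays 1 distribution and summarises each probe set. A level depends on the probes as well as on the RNA. The percentiles and the words dim and brightest therefore give a probe set's rank in signal, not an amount of RNA. The table holds 45101 probe sets. The platform annotation gives 34958 of them 1 symbol, 932 several and 9211 none; 34754 matched the RefSeq table (GRCm38.p6, used for names and promoters) by Entrez number, and 0 symbols changed. Groups and replicate numbers come from the titles.

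The 34958 probe sets were fitted with limma 3.58.1 in R 4.3.3 as 4 group means over all 8 arrays (4 residual and 6.2 prior degrees of freedom), for 9 comparisons: the 6 pairs of groups, the interaction, and the mean effect of each hormone. P-values were adjusted by Benjamini-Hochberg over all 34958, and called at adjusted p under 0.05. Values after ± are standard errors of a difference; the median one between 2 groups was 0.101 log2 units, and precision is limited by how few arrays there are.

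The genes and lists were chosen with earlier results of these data known. Up to 4 called genes per list and comparison are named, largest change first. Tsc22d3, Per1 and Fkbp5 are always given. For each of the 9 genes with a called probe set, the 5 genes of highest r and the 3 of most negative r are named. Predicted and clone names are left out. Some genes of the lists are not reported here. Alternatives were the choice of probe sets, the prior, a filter on dim probe sets, median centring, the arrays in the fit, a replicate block and leaving out arrays. On simulated arrays for Dex against untreated (34958 probe sets), 89 of 100 changes of 1 log2 unit and 100 of 100 of 2 log2 units were called, with 3 false calls. Smaller changes were not simulated, and each simulated probe set had the same spread in all groups. The simulation therefore does not tell how often differences as small as those of the genes other than Snai2 would be called.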

Additional observations from a re-analysis of the deposited data

How the results depend on the processing

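Counts of called probe sets among the 20 depend on single arrays. Leaving out each array in turn gave 1 to 2 for Dex against untreated (2 with all arrays), 2 to 6 for Dex+E2 against untreated (3), 0 to 2 for Dex against E2 (2), 0 to 7 for Dex+E2 against E2 (2), 0 to 2 for Dex+E2 against Dex (0), 2 to 6 for the mean Dex effect (3) and 0 to 1 for the mean E2 effect (0). For the 3 comparisons of Dex+E2 and both mean effects the highest count came without Dex+E2 replicate 1, which leaves replicate 2 alone and assumes that it varies like the other groups; all but 1 of the added calls were of Zeb2. Calls over all probe sets increased with them, to 1270 for Dex+E2 against untreated (372 with all arrays), 1674 for Dex+E2 against E2 (158), 175 for Dex+E2 against Dex (3), 1478 for the mean Dex effect (590) and 80 for the mean E2 effect (29). E2 against untreated and the interaction stayed at 0 in all settings. With 1 probe set per gene, or a gene's probe sets averaged, 1 of 9 genes was called for Dex against untreated, for Dex against E2 and for Dex+E2 against E2, and 2 for Dex+E2 against untreated, since Snai2 then counts once. With only the arrays compared, Dex+E2 against untreated gave 2, Dex against E2 gave 1 and Dex+E2 against E2 gave 0; with dim probe sets removed, Dex+E2 against E2 gave 3. Leaving out both arrays whose description names an immunoprecipitation, an alternative added after seeing the data, gave 6 for Dex+E2 against untreated, 2 for Dex+E2 against Dex, 4 for Dex+E2 against E2, 1 for Dex against E2 and 7 for the mean Dex effect. Where no cause is named, the cause was not tested.

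The replicate numbers as labelled were not taken to pair the arrays, since not every pair of groups passed the check: deviations of same-numbered arrays correlated at 0.16 to 0.313 among Dex, E2 and untreated, but at -0.249 to -0.105 between Dex+E2 and the others. With the replicate number as a block, the count for Dex against E2 and for Dex+E2 against E2 was 1 and for Dex+E2 against untreated and for the mean Dex effect 2, and 374 of all probe sets were called for Dex against untreated, against 397. With the Dex+E2 numbers crossed, which turns those 3 signs (also chosen after seeing the data), 504 were called for Dex against untreated, against 397, 482 for Dex+E2 against E2, against 158, with 3 of the 20, and 878 for the mean Dex effect, against 590, with 4 of the 20.

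Over all probe sets the count for Dex against untreated ran from 179 without Dex replicate 1 to 510 with only the arrays compared or without both doubtful arrays, for E2 against untreated from 3 without untreated replicate 1 to 46 with crossed numbers, and for Dex+E2 against untreated from 169 without untreated replicate 2 to 1436 without both doubtful arrays. Of 60 gene results called, 897 of 1057 recomputed values kept the call, 160 lost it and 0 reversed; of 168 not called, 32 of 2837 recomputed values passed.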
